A study of Homo sapiens with 24 samples.

Results

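The genes described here are the HOX cluster genes, the homeobox transcription factors that lie side by side in 4 genomic clusters. They were selected by symbol, as the protein-coding genes whose names carry HOXA, HOXB, HOXC or HOXD and a number. The rule itself uses no measured value, but it was chosen with earlier results of these data known. The list holds 38 of the 57736 genes in the count tables, 10 in the HOXA cluster on chromosome 7, 10 in the HOXB cluster on chromosome 17, 9 in the HOXC cluster on chromosome 12 and 9 in the HOXD cluster on chromosome 2.

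HOX proteins bind DNA and assign positional identity along the body axis, and the order of the genes within a cluster follows the order of the regions in which they act. Genes with low numbers act towards the head and hindbrain, and genes with high numbers towards the lower trunk, limbs and urogenital tract. In adult cells the clusters are held on or off in blocks by Polycomb repressors and by Trithorax/MLL activators, and HOX genes that are low in adult brain are often expressed in glioma cells.

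RNA was sequenced from U87-T cells, a glioblastoma line that had been transduced with TERT, by a 3′-end method (QuantSeq) in 2 series of 12 libraries. Each series held WT cells and cells of a knockout, DAXX_KO in one and ATRX_KO in the other, as untreated controls and after etoposide, a topoisomerase II poison that breaks DNA, with 3 libraries in each of the 8 groups. WT cells carried an empty Cas9 vector together with the TERT transgene, and all groups shared that transgene. DAXX and ATRX form the chaperone that deposits histone H3.3 at telomeres and repeats, and each knockout was 1 single-cell clone that had been chosen for features of alternative lengthening of telomeres, so the effect of the knockout and the effect of the clone cannot be told apart. The study states that its experiments in general were biological duplicates or triplicates, and the labels do not name the culture of each library, so p-values measure only the spread between these libraries. The dose and the duration of etoposide in these libraries were not given in the sources used here.

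Library totals ran from 6928950 to 13298557 estimated counts. In the labels, ATRX stands in the genotype field of the libraries titled DAXX_KO, and the titles were followed. Levels are given as CPM, a gene's counts relative to the TMM-scaled total of its library. DAXX stood at 34.5 ± 1.27 CPM in WT controls and 5.92 ± 1.08 in DAXX_KO controls (SD, n = 3), a log2 fold change of -2.53 (quasi-likelihood test of edgeR, p adjusted by Benjamini-Hochberg over all genes tested, adjusted p = 7.34e-11), and ATRX stood at 189.5 ± 5.07 CPM in WT controls and 79.4 ± 5.73 in ATRX_KO controls, a log2 fold change of -1.25 (edgeR adjusted p = 9.38e-09). The libraries carried high summed levels of mesenchymal markers (2351 to 7910 CPM) and low levels of glial markers (0.113 to 5.53 CPM), with the astrocyte genes S100B and AQP4 at 3 counts or fewer in every group. In control cells the mesenchymal sum was 7273 to 7910 CPM in WT and 5467 to 5851 in DAXX_KO, and 7196 to 7854 in WT and 5104 to 7033 in ATRX_KO. With etoposide it was 3391 to 3756 CPM in WT and 2351 to 3326 in DAXX_KO, and 3236 to 3365 in WT and 3460 to 4121 in ATRX_KO. Most of the mesenchymal sum was VIM (mean 5798 CPM in WT and 3722 in DAXX_KO controls). The 6 mesenchymal markers did not move together. In DAXX_KO controls 3 were called higher, FN1 among them (204 CPM in WT and 791 in DAXX_KO), and 3 lower. In ATRX_KO controls 2 were called higher and 3 lower. Within the controls the glial sum was 2.11 to 3.42 CPM in WT and 0.268 to 0.763 in DAXX_KO, and 4.35 to 5.53 in WT and 0.235 to 0.827 in ATRX_KO. The neuronal marker sum was 9.14 to 12.6 CPM in WT and 20.5 to 27.3 in DAXX_KO controls, and 6.10 to 7.75 in WT and 10.6 to 18.1 in ATRX_KO controls. In DAXX_KO the higher sum came from SNAP25 (mean 5.30 CPM in WT and 18.2 in DAXX_KO), which was 1 of 3 neuronal markers tested to be called, while SYP (3.79 and 3.61), RBFOX3 (1.40 and 1.28) and STMN2 (0.0336 and 0.0424) were at like levels. In ATRX_KO, 2 of the 3 were called higher. The part of these marker differences in the HOX results was not tested.

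The CPM values were read at the 3′ end of each transcript and are not per length, so levels of different genes are not compared. A library's detection floor, set at 3 counts, was 0.215 to 0.407 CPM. Of the 38 genes, 22 passed the filter on low counts among the libraries with DAXX_KO and 25 among those with ATRX_KO, the further 3 being HOXC11, HOXC13 and HOXD4. Another 8 genes had 3 counts or fewer in every library (HOXA6, HOXA10, HOXA13, HOXB1, HOXC12, HOXD1, HOXD12 and HOXD13), HOXA13 having 0 counts throughout, and HOXA7, HOXA9, HOXB8, HOXB13 and HOXC5 were above that in some library but not tested. Counts of called genes below therefore describe the tested genes and not all 38, and 12 of the 38 had at least 10 counts in every library. Genes of a cluster that overlap on the same strand, such as HOXA3 with HOXA4 and HOXA5, HOXB3 with HOXB4, HOXB5 and HOXB6, HOXC4 with HOXC5 and HOXC6, HOXC6 with HOXC8 and HOXC9, and HOXD10 with HOXD11, may have reads divided between them.

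**Figure D1:**
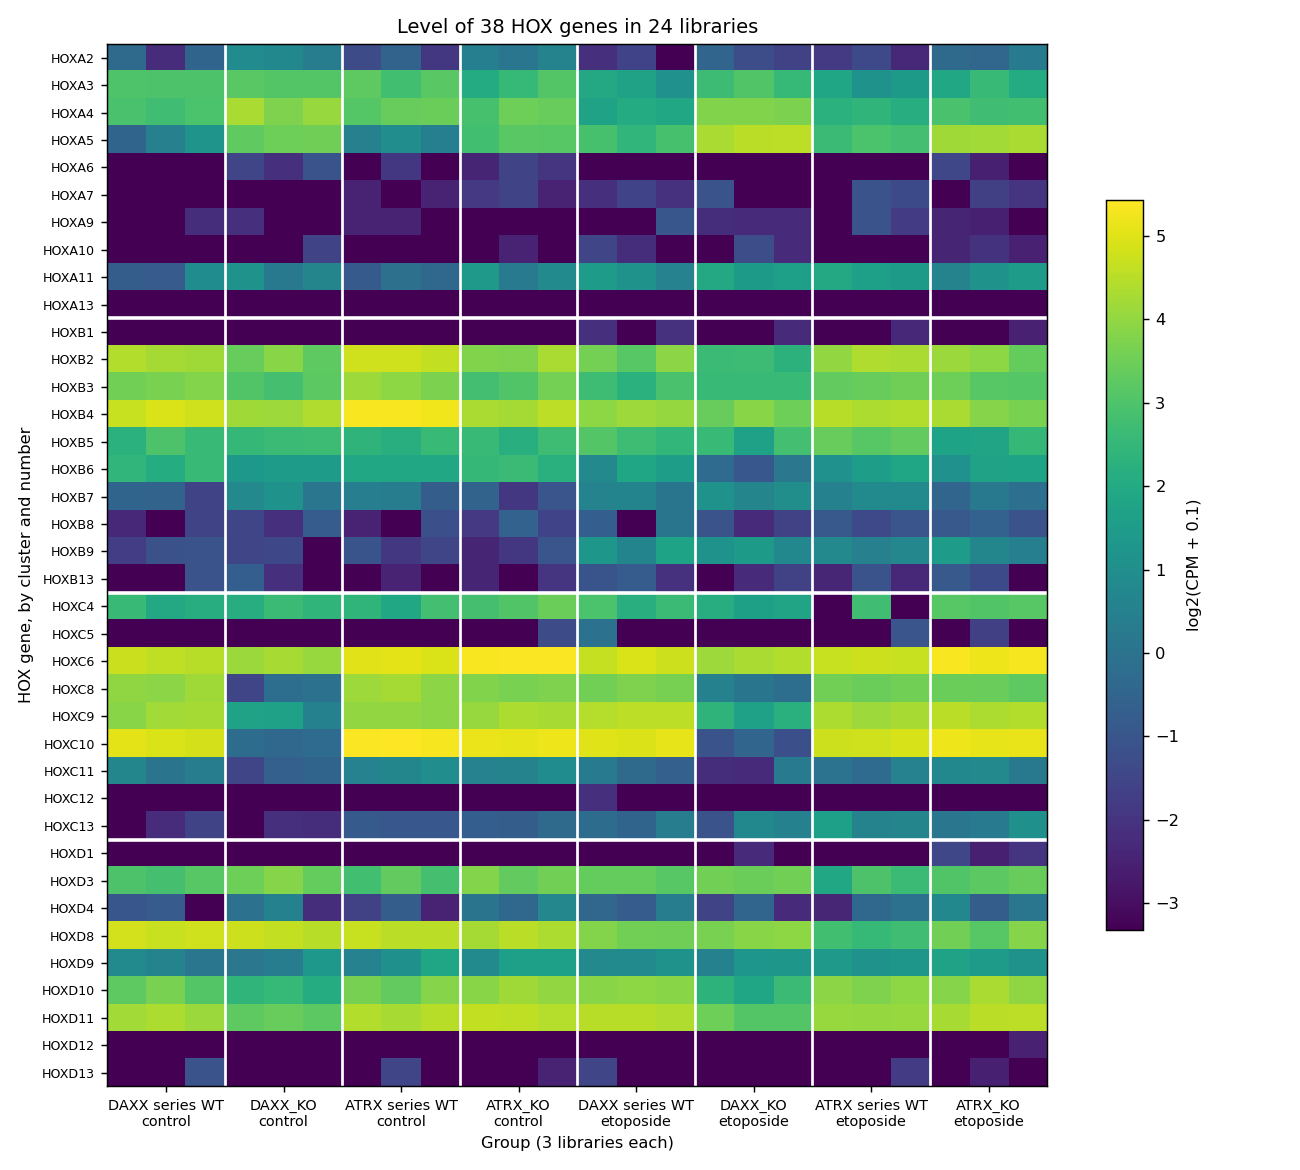
Level of each of the 38 HOX genes in each of the 24 libraries, as log2(CPM + 0.1) on a colour scale from dark (low) to bright (high), with genes in cluster order and 3 libraries per group. HOXC10 is bright in 18 libraries, at 27.2 to 42.9 CPM, and dark in the 6 DAXX_KO libraries, at 0.338 to 0.763 CPM.

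Promoters were available for 20 of the 38 genes in the RefSeq set (GRCh38.p14). Those of 4 genes are printed here because the results below differ among them: HOXD11 and HOXD10 fell in DAXX_KO controls, their neighbour HOXD8 did not pass the test, and HOXA4 rose. Each line gives the 250 bases before the transcription start, read 5′ to 3′ on the gene's strand, and capitals mark matches on either strand to 4 letter strings. These were TATAA, from the element that binds the TATA-binding protein close to the start, CCAAT, from the element bound by the factor NF-Y, GGGCGG, from the element bound by the factor SP1, and TAATTA, the core that many homeodomain proteins bind. TAATTA reads the same on both strands, and TATAA and TAATTA can share letters.
HOXD11: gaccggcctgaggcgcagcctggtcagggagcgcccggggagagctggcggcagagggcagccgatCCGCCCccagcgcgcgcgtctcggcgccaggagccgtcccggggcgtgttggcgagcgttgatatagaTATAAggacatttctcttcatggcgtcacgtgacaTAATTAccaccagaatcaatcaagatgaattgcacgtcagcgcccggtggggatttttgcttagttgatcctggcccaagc
HOXD10: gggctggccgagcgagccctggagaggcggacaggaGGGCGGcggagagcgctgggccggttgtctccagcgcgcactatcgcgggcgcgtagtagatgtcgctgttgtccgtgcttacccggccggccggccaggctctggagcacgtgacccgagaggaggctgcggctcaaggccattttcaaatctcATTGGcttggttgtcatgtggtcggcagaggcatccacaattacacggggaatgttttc
HOXD8: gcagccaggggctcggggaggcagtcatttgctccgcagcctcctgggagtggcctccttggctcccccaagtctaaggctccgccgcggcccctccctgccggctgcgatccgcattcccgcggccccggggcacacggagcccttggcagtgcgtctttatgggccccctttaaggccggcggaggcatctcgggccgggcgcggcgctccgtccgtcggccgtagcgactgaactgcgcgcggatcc
HOXA4: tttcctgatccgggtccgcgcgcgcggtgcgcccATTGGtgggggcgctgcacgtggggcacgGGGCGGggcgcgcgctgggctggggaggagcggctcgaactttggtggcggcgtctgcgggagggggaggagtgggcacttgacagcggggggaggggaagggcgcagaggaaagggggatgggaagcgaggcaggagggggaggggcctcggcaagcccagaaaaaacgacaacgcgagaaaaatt
The HOXD11 promoter lies at chr2:176107030-176107279 (plus strand), that of HOXD10 at chr2:176116528-176116777 (plus strand), that of HOXD8 at chr2:176129455-176129704 (plus strand) and that of HOXA4 at chr7:27130758-27131007 (minus strand). HOXD11 held a match to the TATA letters, to the SP1 letters and to the homeodomain letters, HOXD10 and HOXA4 each held a match to the NF-Y letters and to the SP1 letters, and HOXD8 held none of these letter strings in this window. Over the 26 distinct member promoters, TATAA occurred in 9, CCAAT in 17, GGGCGG in 13 and TAATTA in 2, and over all 34788 promoters of the same length the shares were 19.0%, 32.0%, 42.6% and 4.37%. Several of the 26 are alternative starts of HOXA3 alone, some of them with TATAA, so the 26 do not stand for separate genes. The median number of CG dinucleotides was 19.5 in member promoters and 11 in all promoters. These matches describe the sequence alone.

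The first question was how the HOX genes differed between DAXX_KO and WT cells without etoposide. HOXC8 and HOXC10 were close to the floor in DAXX_KO and HOXC9 was far below WT, HOXA4 and HOXA5 were higher, and several HOXB and HOXD genes were lower. Of the 22 genes tested, 5 rose and 10 fell, where 26.7% of all 15247 genes tested rose and 26.6% fell. The median log2 fold change was -0.29 over the 22 genes and 0.02 over all genes tested.

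HOXC10, which specifies lumbar motor neurons and the hindlimb level, had 33.8, 30.6 and 29.2 CPM in the WT controls and 0.763, 0.670 and 0.733 CPM in the DAXX_KO controls. The groups were far apart, with every DAXX_KO library near the floor, and the log2 fold change was -5.40 (SE 0.19, edgeR adjusted p = 2.63e-14). HOXC8, a thoracic-level gene, had 15.8, 14.8 and 18.1 CPM in WT and 0.254, 0.804 and 0.855 CPM in DAXX_KO. The groups again did not overlap, with a log2 fold change of -4.63 (SE 0.27, edgeR adjusted p = 3.43e-11). HOXC9, which sets thoracic motor neuron identity, had 14.4, 18.6 and 18.9 CPM in WT and 3.18, 3.08 and 1.34 CPM in DAXX_KO. It remained above the floor in all 3 DAXX_KO libraries, and its log2 fold change was -2.77 (SE 0.23, edgeR adjusted p = 5.7e-09). In bulk RNA, fewer cells expressing a gene and less of its RNA per cell cannot be told apart.

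HOXC6, a forelimb-level gene that lies on the low-numbered side of this block, had 26.2, 24 and 22.2 CPM in WT and 17.0, 19.3 and 16.9 CPM in DAXX_KO. It was lower in each DAXX_KO library, but by a log2 fold change of only -0.45 (SE 0.12, edgeR adjusted p = 0.00284), and scaled by library totals alone it was -0.26 (adjusted p = 0.0672). HOXC4 did not pass the test (0.16, edgeR adjusted p = 0.625). HOXC11 was not tested in this series, with 1.51, 0.937 and 1.22 CPM in WT and 0.254, 0.536 and 0.611 in DAXX_KO. In the order of the genes, the step in level lay between HOXC8 and HOXC6. Summed, HOXC8 to HOXC11 gave 66.0 ± 1.32 CPM in WT and 4.36 ± 0.778 in DAXX_KO, while HOXC4 to HOXC6 gave 28.8 ± 2.92 and 22.9 ± 2.21 (SD, n = 3).

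In GRCh37 coordinates the gene bodies of the block are HOXC10 at chr12:54378849-54384063, HOXC9 at chr12:54388679-54397121 and HOXC8 at chr12:54402769-54406553, all on the plus strand, and the HOXC6 gene model at chr12:54384408-54424607 spans HOXC9 and HOXC8. A pair of antisense long noncoding RNAs, one in the block and one beyond its HOXC10 end, fell too. HOXC-AS3, which overlaps the start of HOXC10 on the opposite strand, had 4.74, 5.15 and 4.40 CPM in WT and 0 counts in all 3 DAXX_KO controls, and was at least 11.9-fold lower against the highest floor among those libraries, at 3 counts per library. HOTAIR, which overlaps HOXC11 and has been linked to Polycomb repression of HOXD genes, had 4.04, 2.81 and 4.52 CPM in WT and 0.763, 1.21 and 0.978 in DAXX_KO, with a log2 fold change of -1.93 (edgeR adjusted p = 7.84e-05). Whether counting used the strand was not given in the sources used here, so reads in the shared stretches cannot be told apart. HOXC-AS3 (chr12:54375293-54379303) shares the start of HOXC10, and HOTAIR (chr12:54356092-54368740) shares the start of HOXC11 (chr12:54366910-54371427). Libraries were read at the 3′ end of transcripts, and the part of shared reads in these levels was not tested.

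**Figure D2:**
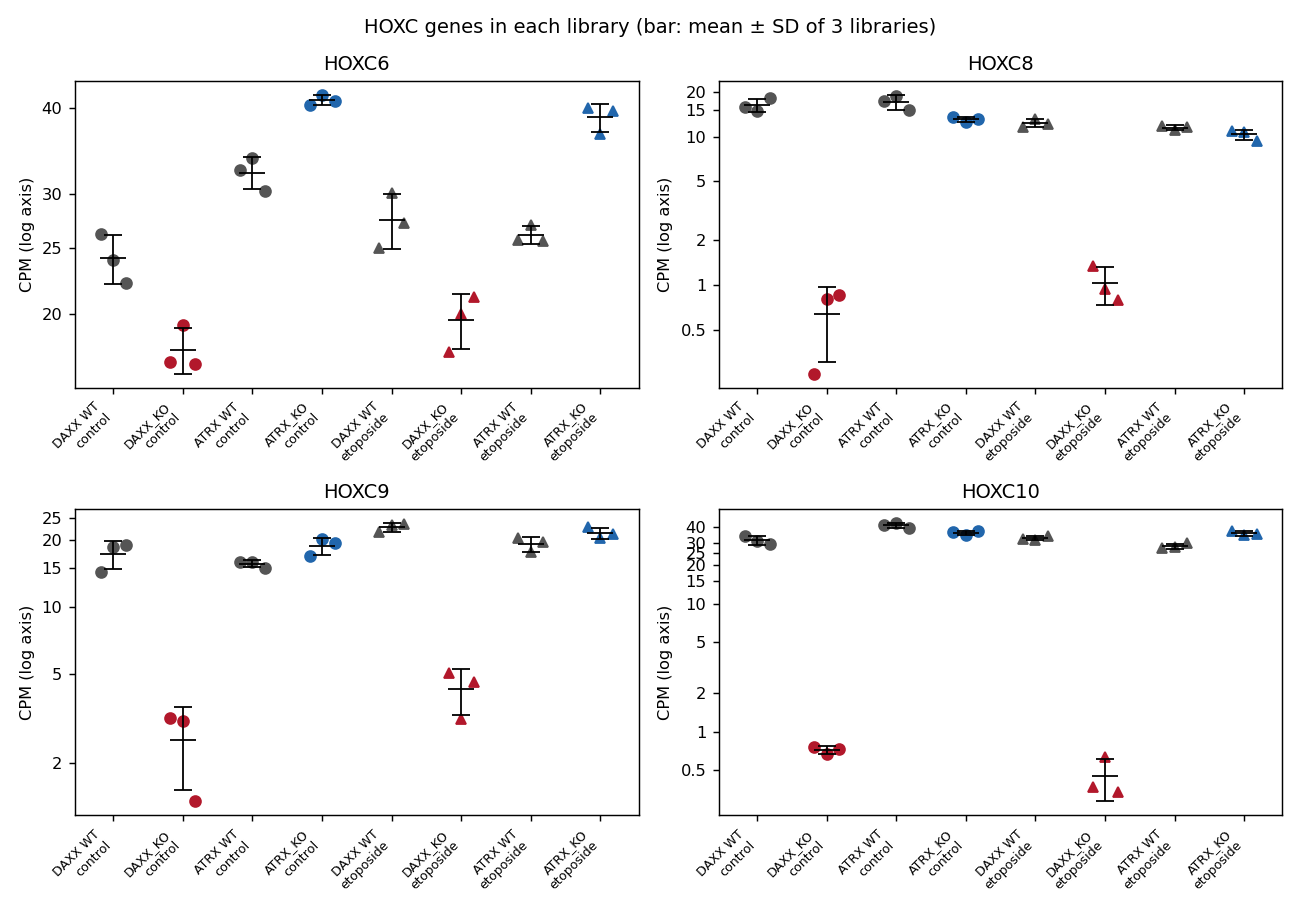
Level of HOXC6, HOXC8, HOXC9 and HOXC10 in each library, in CPM on a log axis, with 3 points per group and bars for the mean ± SD. The 6 DAXX_KO libraries lie at 5.05 CPM or below for HOXC8, HOXC9 and HOXC10, and every library of the 6 other groups lies above them.

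In the HOXA cluster, HOXA5, which patterns the lung and the cervical and thoracic skeleton, had 0.605, 1.29 and 2.20 CPM in WT and 9.79, 11.3 and 11.4 CPM in DAXX_KO. All DAXX_KO libraries were well above all WT libraries, with a log2 fold change of 3.02 (SE 0.27, edgeR adjusted p = 1.4e-08). HOXA4, its neighbour, had 7.46, 6.56 and 7.57 CPM in WT and 20, 13.3 and 16.6 in DAXX_KO, and rose by 1.21 on the log2 scale (SE 0.16, edgeR adjusted p = 3.09e-06). HOXA2, which sets branchial arch identity, was near the floor in WT at 0.706, 0.117 and 0.611 CPM and stood at 1.78, 1.61 and 1.22 CPM in DAXX_KO. The groups did not overlap and the log2 fold change was 1.63 (SE 0.55, edgeR adjusted p = 0.0181), but the call was lost with DESeq2 (adjusted p = 0.0617) and without DAXX_KO control replicate 1 (1.51), DAXX_KO control replicate 2 (1.60) or WT control replicate 2 (1.2). HOXA3 (0.12, with 8.07, 7.85 and 7.82 CPM in WT and 9.03, 8.44 and 8.31 in DAXX_KO) and HOXA11 (0.78, WT 0.504, 0.469 and 1.83 CPM, DAXX_KO 2.16, 1.07 and 1.47) did not pass the test. The overlapping antisense RNA HOXA-AS2, picked after its values were seen, had 2.42, 2.81 and 1.71 CPM in WT and 7.37, 6.43 and 8.43 in DAXX_KO (log2 fold change 1.67, edgeR adjusted p = 1.63e-05).

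Of the 7 HOXB genes tested, 4 fell in DAXX_KO by smaller steps, 1 rose and 2 did not pass the test. HOXB4, a regulator of hematopoietic stem cell growth, had 25.6, 30.1 and 27.4 CPM in WT and 17.8, 17.6 and 20.9 in DAXX_KO, with no overlap (log2 fold change -0.56, SE 0.12, edgeR adjusted p = 0.000866). HOXB2, a hindbrain gene, had 21.4, 19.1 and 18.1 CPM in WT and 10.4, 14.6 and 9.41 in DAXX_KO, again without overlap (-0.77, edgeR adjusted p = 0.00133). HOXB3 had 11.7, 12.5 and 13.9 CPM in WT and 8.26, 7.10 and 9.29 in DAXX_KO (-0.62, edgeR adjusted p = 0.00438). HOXB6 fell by 0.99 on the log2 scale (edgeR adjusted p = 0.00938), HOXB7 rose by 1.67 (adjusted p = 0.00591) from a WT level of 0.605, 0.586 and 0.244 CPM, and HOXB5 did not pass the test (-0.03, edgeR adjusted p = 0.943), with 4.74, 7.85 and 5.99 CPM in WT and 5.59, 6.16 and 6.36 in DAXX_KO.

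In the HOXD cluster HOXD10 and HOXD11 fell, HOXD3 rose, and HOXD8 and HOXD9 did not pass the test (HOXD9 0.18, edgeR adjusted p = 0.738). HOXD11, which patterns the forearm and kidney, had 18.4, 20.3 and 17.2 CPM in WT and 9.41, 10.3 and 9.17 in DAXX_KO, so that every DAXX_KO library was below every WT library (log2 fold change -0.95, SE 0.14, edgeR adjusted p = 7.33e-06). HOXD10, which acts in lumbar motor neurons, had 9.38, 12.7 and 8.31 CPM in WT and 5.21, 5.76 and 4.16 in DAXX_KO (-1.0, SE 0.21, edgeR adjusted p = 0.000479). HOXD8 had 28.1, 25.5 and 27.4 CPM in WT and 27.2, 24.8 and 22.4 in DAXX_KO, with overlapping groups and no call (-0.12, edgeR adjusted p = 0.371). HOXD3 had 7.77, 7.03 and 8.80 CPM in WT and 11.2, 14.1 and 10.1 in DAXX_KO (0.58, edgeR adjusted p = 0.00406).

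Genes next to the clusters were examined too, where 26.7% of all genes tested rose and 26.6% fell in DAXX_KO controls. Of the 20 genes nearest to each cluster and tested, 12 rose and 1 fell beside HOXA (median log2 fold change 0.66), 3 rose and 11 fell beside HOXB (-0.31), 7 rose and 5 fell beside HOXC (0.23), and 2 rose and 11 fell beside HOXD (-0.30). These 20 genes covered stretches of unlike length, such as chr7:23719749-30202378 around HOXA and chr12:53773960-54813050 around HOXC (GRCh37). With each HOX gene centred on the 30 nearest tested genes on either side, HOXA5 stood at 2.51 and HOXA4 at 0.70, and both remained called, whereas HOXB2 (-0.37, adjusted p = 0.0956), HOXB3 (-0.22, 0.292), HOXB4 (-0.20, 0.201), HOXB6 (-0.59, 0.112) and HOXA2 (1.13, 0.1) did not pass. The part of the chromosomal neighbourhood in these results was not otherwise tested.

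**Figure D3:**
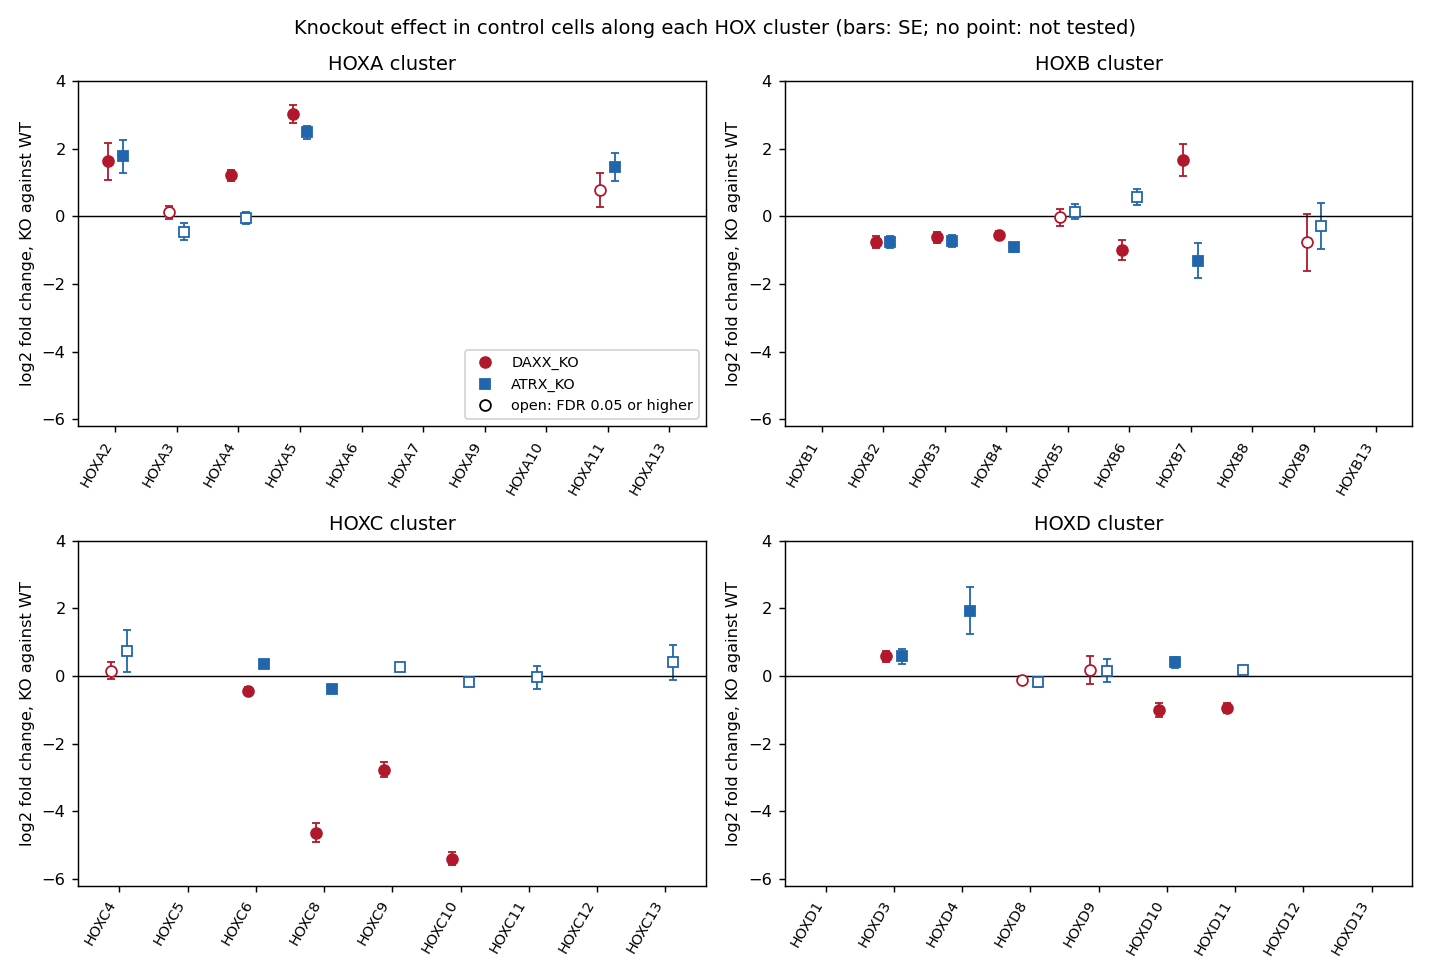
Log2 fold change of each tested HOX gene in DAXX_KO and ATRX_KO controls against the WT controls of the same series, with standard errors, filled points for genes past the threshold, and the genes in cluster order. HOXC10 (-5.40), HOXC8 (-4.63) and HOXC9 (-2.77) stand out below 0 in DAXX_KO, and HOXA5 stands above 0 in both knockouts (3.02 and 2.48).

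The same comparison in the ATRX series gave a different list of changes, made against its own WT libraries. Of the 25 genes tested, 7 rose and 5 fell, where 20.8% of all 16371 genes tested rose and 21.0% fell. The count of called genes was 12, and 7 without ATRX WT control replicate 1. The median log2 fold change was 0.16 over the 25 genes and 0.02 over all genes tested. HOXA5 had 1.30, 1.84 and 1.26 CPM in WT and 6.74, 9.09 and 8.77 in ATRX_KO, with no overlap, and rose by 2.48 on the log2 scale (SE 0.20, edgeR adjusted p = 3.45e-08). HOXA2 had 0.307, 0.585 and 0.168 CPM in WT, around the floor, and 1.28, 0.992 and 1.41 in ATRX_KO (1.77, edgeR adjusted p = 0.00891). HOXA11, a gene of the forearm, kidney and uterus, had 0.460, 0.836 and 0.673 CPM in WT and 2.56, 1.16 and 1.72 in ATRX_KO (1.46, SE 0.41, edgeR adjusted p = 0.0083), and it just missed the threshold without ATRX_KO control replicate 1 (1.14, adjusted p = 0.0507). HOXA4 had 8.52, 10.3 and 11 CPM in WT and 7.25, 11.2 and 10.3 in ATRX_KO, groups that overlapped (-0.05, edgeR adjusted p = 0.849). HOXA3 overlapped as well, with 9.36, 6.77 and 8.91 CPM in WT and 4.10, 5.70 and 8.38 in ATRX_KO (-0.45, edgeR adjusted p = 0.158).

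HOXC8, HOXC9 and HOXC10, the block that fell most in DAXX_KO, were expressed in ATRX_KO. HOXC10 had 41.0, 42.9 and 39.3 CPM in WT and 36.2, 34.4 and 37 in ATRX_KO (log2 fold change -0.19, edgeR adjusted p = 0.0673), and HOXC9 had 15.9, 16.0 and 15 CPM and 16.9, 20.2 and 19.3 (0.27, edgeR adjusted p = 0.0518). The groups did not overlap for either gene, yet neither passed the test. HOXC8 had 17.4, 18.9 and 15 CPM in WT and 13.5, 12.6 and 13.1 in ATRX_KO (-0.39, edgeR adjusted p = 0.0172), a call that was lost without WT control replicate 1 or 2 (-0.36 and -0.31) or ATRX_KO control replicate 2 (-0.36). HOXC6 rose in all ATRX_KO libraries, with 32.5, 33.8 and 30.3 CPM in WT and 40.4, 41.8 and 41.0 in ATRX_KO (0.36, SE 0.08, edgeR adjusted p = 0.00191). The HOXC8 to HOXC11 sum was 75.4 ± 4.08 CPM in WT and 69.2 ± 1.73 in ATRX_KO (SD, n = 3). HOXC-AS3 (-0.14) and HOTAIR (0.10) did not pass the test in ATRX_KO.

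HOXB4 had 40.1, 40.6 and 37.9 CPM in WT and 19.9, 19.0 and 23.6 in ATRX_KO, without overlap (-0.92, SE 0.13, edgeR adjusted p = 3.35e-05), and it stayed called when centred on its neighbours (-0.55). HOXB2 had 27.5, 27.6 and 24.7 CPM in WT and 13.4, 13.1 and 20 in ATRX_KO (-0.77, edgeR adjusted p = 0.00242), and HOXB3 had 17.4, 15.4 and 12.9 CPM and 6.91, 8.27 and 12.1 (-0.74, edgeR adjusted p = 0.00389). All WT libraries lay above all ATRX_KO libraries for both genes, and centred on neighbours neither passed (-0.41 and -0.38, adjusted p = 0.0831 and 0.116). HOXB5 had 5.07, 4.43 and 6.05 CPM in WT and 6.06, 4.46 and 6.50 in ATRX_KO, with no call (0.14).

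HOXD11 had 21.3, 19.5 and 22.4 CPM in WT and 24.8, 24 and 22.0 in ATRX_KO (0.17, edgeR adjusted p = 0.206), and HOXD8 had 25.6, 22.7 and 22.8 CPM and 18.9, 23.1 and 20.2 (-0.19, edgeR adjusted p = 0.32). Both pairs of groups overlapped. HOXD10 had 12.4, 10 and 14.2 CPM in WT and 14.6, 17.8 and 15.9 in ATRX_KO (0.40, edgeR adjusted p = 0.0394), and HOXD3 had 6.83, 10 and 7.06 CPM and 14, 10 and 11.7 (0.58, edgeR adjusted p = 0.046). The calls of HOXB7 (-1.31), HOXD3, HOXD4 (1.93) and HOXD10 were each lost without any 1 of several libraries. HOXB7 was lost without 10 of the 12 libraries in turn (all but ATRX_KO control replicate 1 and WT control replicate 3). HOXD3 was lost without replicate 1 or 3 of either control group, ATRX_KO etoposide replicate 2 or WT etoposide replicate 3, HOXD4 without replicate 1 or 3 of either control group, and HOXD10 without WT control replicate 1 or 2, ATRX_KO control replicate 2 or 3 or WT etoposide replicate 1. At the lowest, HOXB7 stood at -0.96 without ATRX_KO control replicate 2, HOXD3 at 0.46 without ATRX_KO control replicate 1, HOXD4 at 1.52 without WT control replicate 3 and HOXD10 at 0.28 without WT control replicate 2, and none of these passed. Of the 20 genes beside each cluster, 8 rose and 4 fell beside HOXA (median log2 fold change 0.09). Beside HOXB 3 rose and 10 fell (-0.4), beside HOXC 6 and 1 (0.16), and beside HOXD 3 and 6 (-0.16). The background shares in ATRX_KO controls were 20.8% rising and 21.0% falling.

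Of the 22 genes tested in both series, HOXA2, HOXA5 and HOXD3 rose in both knockouts and HOXB2, HOXB3, HOXB4 and HOXC8 fell in both. HOXB7, HOXC6 and HOXD10 were called in opposite directions. The share of all genes called in both knockouts is not given here, so these lists are not set against a background. The difference between the knockout effects was tested directly in a model of all 24 libraries, with the DAXX_KO effect minus the ATRX_KO effect. It was called for 9 of 25 HOX genes, where 34.1% of all 16674 genes tested were called. The differences were -5.21 for HOXC10 (edgeR adjusted p = 2.6e-17), -4.25 for HOXC8 (5.01e-12), -3.04 for HOXC9 (2.58e-10), -0.80 for HOXC6 (2.24e-05), 1.26 for HOXA4 (0.000107), -1.12 for HOXD11 (4.09e-06) and -1.40 for HOXD10 (0.000126), all on the log2 scale. HOXB6 (-1.56) and HOXB7 (3.00) were the other two. HOXA5 was not called, so a difference between its rise in the 2 knockouts was not found at this depth. The WT controls of the 2 series also differed for 3 of 25 HOX genes, where 13.2% of all genes did: HOXB4 (-0.52), HOXC6 (-0.41) and HOXC10 (-0.39) were lower in the WT of the DAXX series.

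After etoposide, the DAXX_KO and WT cells differed in the same block of HOXC genes. Of 22 genes tested, 3 were higher and 10 lower in DAXX_KO, where 27.9% of all genes were higher and 25.2% lower (median log2 fold change -0.26 over the 22 genes, 0.01 over all). HOXC10 had 32.2, 31.5 and 33.9 CPM in WT and 0.370, 0.631 and 0.338 in DAXX_KO (-6.13, SE 0.20, edgeR adjusted p = 1.53e-14). HOXC8 had 11.6, 13.2 and 12.2 CPM and 1.35, 0.946 and 0.789 (-3.58, edgeR adjusted p = 4.78e-10), and HOXC9 had 21.6, 23.3 and 23.6 CPM and 5.05, 3.15 and 4.62 (-2.43, edgeR adjusted p = 6.76e-09). All DAXX_KO libraries were below all WT libraries for these genes, and HOXC-AS3 was at least 16.3-fold lower. HOXD10 (-1.61, edgeR adjusted p = 1.79e-06), HOXD11 (-1.24, 2.27e-07), HOXB6 (-1.87, 0.00049), HOXB2 (-1.04, 0.000304), HOXC6 (-0.49, 0.00105), HOXB4 (-0.45, 0.0103) and HOXC4 (-0.76, 0.0175) were lower too. The HOXB4 call was lost without DAXX_KO etoposide replicate 1 (-0.35), and centred on neighbours HOXB4 stood at 0.09 and HOXB2 at -0.51 (adjusted p = 0.0502), neither called. HOXC4 was lost without DAXX_KO etoposide replicate 2 (-0.65) or WT etoposide replicate 1 (-0.56). It was also lost in the model of all 24 libraries, at the same fold change (-0.76, edgeR adjusted p = 0.313). The higher genes were HOXA4 (1.85, edgeR adjusted p = 7.52e-08), HOXA5 (1.75, 2.96e-07) and HOXA3 (1.14, 0.000235).

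The remaining library values of the named genes after etoposide in the DAXX series were as follows. HOXA4 had 3.16, 4.07 and 3.66 CPM in WT and 13.5, 13.4 and 12.8 in DAXX_KO, and HOXA3 had 6.28, 8.2 and 5.75 CPM in DAXX_KO, above each of its WT libraries (3.79, 3.23 and 2.03). Neither gene's groups overlapped. HOXA11, at 3.82, 2.63 and 2.93 CPM in DAXX_KO, overlapped its WT libraries and did not pass the test (0.55). HOXA2, at 0.126, 0.239 and 0 CPM in WT and 0.616, 0.315 and 0.225 in DAXX_KO, also overlapped and did not pass. Its WT group was at the floor, so no fold change is given. HOXB2 had 12, 8.73 and 14.9 CPM in WT and 6.16, 6.31 and 4.85 in DAXX_KO, and HOXB4 had 10.3, 14.4 and 11.2 CPM in DAXX_KO, below its WT libraries. HOXB3 had 6.45, 4.67 and 7.46 CPM in WT and 5.79, 5.89 and 5.97 in DAXX_KO, and HOXB5 had 8.35, 6.46 and 5.42 CPM in WT and 6.04, 3.15 and 6.87 in DAXX_KO. These last pairs of groups overlapped, and neither gene was called (-0.07 and -0.35). HOXC6 had 25, 30.1 and 27.2 CPM in WT and 17.6, 20 and 21.2 in DAXX_KO. HOXD11 had 22.4, 22.3 and 20.6 CPM in WT and 11.1, 8.3 and 8.45 in DAXX_KO, and HOXD10 had 14.4, 15.1 and 14.4 CPM and 4.93, 3.47 and 6.08. The groups of these 3 genes were apart, with DAXX_KO lower. HOXD3 had 10.2, 10.2 and 8.81 CPM in WT and 11.7, 10.8 and 11.7 in DAXX_KO, groups that did not overlap but did not pass the test (0.22, edgeR adjusted p = 0.251).

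After etoposide, ATRX_KO was higher than WT for 9 of 25 HOX genes and lower for 2, where 23.0% of all genes were higher and 22.9% lower (median 0.25 over the 25 genes, 0.01 over all). The count of called genes was 11, and 6 without ATRX_KO etoposide replicate 3. HOXA5 had 6.19, 7.61 and 6.95 CPM in WT and 18, 18.4 and 20 in ATRX_KO (1.42, SE 0.16, edgeR adjusted p = 1.32e-06). HOXB5, an axial gene of the neck and shoulder, had 10.5, 8.82 and 9.89 CPM in WT and 3.27, 3.36 and 5.53 in ATRX_KO (-1.28, edgeR adjusted p = 0.000129). HOXD8 had 6.82, 5.75 and 6.66 CPM in WT and 11.6, 8.80 and 14.3 in ATRX_KO (0.83, edgeR adjusted p = 0.000748). None of these 3 pairs of groups overlapped. HOXC6 (0.54, edgeR adjusted p = 4.47e-05), HOXC10 (0.32, 0.00504), HOXD11 (0.37, 0.00937), HOXD3 (0.64, 0.0375) and HOXA4 (0.51, 0.0338) were higher and HOXB4 (-0.50, 0.00857) was lower, while HOXA2 was at least 2.80-fold higher against a WT group at the floor. HOXC4 was called higher (1.94, edgeR adjusted p = 0.0318) with 0, 6.59 and 0 CPM in WT and 8.82, 8.23 and 8.89 in ATRX_KO. Its count was 0 in 2 WT etoposide libraries, where HOXC5, which it overlaps, had 0 and 4 counts and HOXC6, which it also overlaps, 286 and 261, and the part of read division in these zeros was not tested. HOXC4 was not called with DESeq2 (adjusted p = 0.288) or without WT etoposide replicate 1 (1.37) or replicate 3 (1.40), or ATRX_KO etoposide replicate 2 (1.98) or replicate 3 (1.92). The HOXA4 call was lost without any ATRX_KO etoposide library or without WT etoposide replicate 1 or 3 (0.47 to 0.55), and centred on neighbours it stood at 0.18 (adjusted p = 0.454). The call of HOXD3 was lost without ATRX_KO etoposide replicate 2 or 3 or WT etoposide replicate 1 or 3 (0.40 to 0.70). Without ATRX_KO etoposide replicate 3, HOXB4 (-0.36) and HOXA2 were not called, and HOXB4 was not called when centred on neighbours (-0.30, adjusted p = 0.0938).

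The other library values of the named genes after etoposide in the ATRX series are given by cluster. HOXA4 had 4.76, 5.2 and 4.31 CPM in WT and 7.41, 6.58 and 6.8 in ATRX_KO, and HOXA2 had 0.18, 0.278 and 0.0979 CPM and 0.706, 0.644 and 1.12, in both cases without overlap. HOXA3 had 3.71, 5.87 and 4.11 CPM in ATRX_KO, above its WT libraries (3.41, 2.13 and 2.64) but not past the threshold (0.72, edgeR adjusted p = 0.0511). HOXA11, at 1.41, 2.15 and 2.76 CPM in ATRX_KO, overlapped its WT libraries. HOXB2 had 16.1, 20.9 and 19.9 CPM in WT and 17.3, 15.4 and 10.2 in ATRX_KO, and HOXB3 had 9.87, 10.5 and 11.4 CPM and 11.1, 8.87 and 8.52. Both overlapped and neither was called. HOXC6 had 25.7, 27 and 25.6 CPM in WT and 40, 36.7 and 39.6 in ATRX_KO, and HOXC10 had 27.2, 27.5 and 29.5 CPM and 37.2, 34.1 and 35.3, with ATRX_KO higher in every library. HOXC8 had 11.8, 11 and 11.6 CPM in WT and 10.9, 10.7 and 9.41 in ATRX_KO, and HOXC9 had 20.5, 17.6 and 19.5 CPM and 22.8, 20.4 and 21.3, and neither was called (-0.18 and 0.13). HOXD11 had 16.7, 16.3 and 16.6 CPM in WT and 19.2, 22.6 and 23.5 in ATRX_KO, and HOXD3 had 3.59, 7.89 and 6.17 CPM and 8.21, 9.23 and 10.4, again without overlap. HOXD10 overlapped, with 14.9, 13.3 and 15.1 CPM in WT and 14.2, 19.7 and 15.5 in ATRX_KO (0.17, edgeR adjusted p = 0.376).

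The difference between the knockout effects under etoposide was called for 11 of 25 HOX genes, where 34.5% of all genes were called. It was -6.47 for HOXC10 (edgeR adjusted p = 7.82e-19), -3.43 for HOXC8 (1.06e-10), -2.59 for HOXC9 (9.77e-10), -1.06 for HOXC6 (4.16e-07), -1.80 for HOXD10 (3.75e-06) and -1.63 for HOXD11 (1.19e-08). HOXA4 (1.32) was higher in the DAXX_KO contrast, and HOXB5 (0.91), HOXB6 (-1.90), HOXC4 (-2.72) and HOXD8 (-0.66) completed the list. The HOXB5 call was lost in 16 of the 24 fits that left out 1 library, at 0.68 to 0.98, and the HOXD8 call without ATRX_KO etoposide replicate 3 (-0.47), WT etoposide replicate 2 of the ATRX series (-0.59) or WT etoposide replicate 1 of the DAXX series (-0.57), and when centred on neighbours (-0.37, adjusted p = 0.209).

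Etoposide itself moved several HOX genes in WT cells. In the WT of the DAXX series 6 of 22 rose and 7 fell, where 29.6% of all genes rose and 30.6% fell, and in the WT of the ATRX series 6 of 25 rose and 10 fell, where 31.7% rose and 29.8% fell. The medians were 0.18 over the HOX genes and 0.02 over all genes in the DAXX series, and -0.35 and 0.07 in the ATRX series. HOXA5, HOXA11, HOXB9 and HOXC9 rose in both WT comparisons, HOXA3, HOXA4, HOXB2, HOXB3, HOXB4 and HOXD8 fell in both, and none was called in opposite directions. These shared calls are likewise not set against the share of all genes called in both WT comparisons. HOXB7 (1.37), HOXD10 (0.55) and HOXB6 (-0.94) were called in the DAXX series only, and HOXB5 (0.93), HOXC6 (-0.28), HOXC8 (-0.55), HOXC10 (-0.53) and HOXD11 (-0.32) in the ATRX series only, and these differences between the series were not tested. HOXC13, which was tested only in the ATRX series, rose there by 2.16, and its DAXX series WT levels were 0, 0.117 and 0.244 CPM in controls and 0.759, 0.598 and 1.22 after etoposide. The ATRX series calls of HOXB2 (lost without WT control replicate 1 or 2 or WT etoposide replicate 1, -0.45 to -0.38, and with at least 10 counts required in every library, -0.40) and HOXB3 (lost without replicate 1 or 2 of either WT group, -0.52 to -0.40) were not stable. In the DAXX series HOXB7 was lost without WT control replicate 3 or WT etoposide replicate 1 or 2 (1.08 to 1.29), HOXD10 without WT control replicate 1 or 3 (0.50 and 0.42) and HOXB6 without WT etoposide replicate 1 (-0.70). HOXD11 was lost without ATRX WT control replicate 3 (-0.29), with that stricter filter (-0.25) and centred on neighbours (-0.09, adjusted p = 0.511). HOXC9 rose by 0.42 and 0.32, stood at 0.12 in both series centred on neighbours (adjusted p = 0.553 and 0.347), and its calls were lost without any WT etoposide library or control replicate 1 in the DAXX series (0.31 to 0.45), and without control replicate 3 or etoposide replicate 1 or 3 in the ATRX series (0.25 to 0.29).

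HOXA5 had 7.34, 5.26 and 7.19 CPM after etoposide in the WT of the DAXX series, above its 0.605 to 2.20 CPM in controls (log2 fold change 2.32, SE 0.29, edgeR adjusted p = 8.34e-07), and 6.19, 7.61 and 6.95 CPM in the ATRX series, above 1.26 to 1.84 CPM in controls (2.25, SE 0.20, edgeR adjusted p = 5.24e-08). HOXB9, a thoracic-level gene, had 2.40, 1.44 and 3.25 CPM after etoposide in the DAXX series, against 0.202, 0.351 and 0.367 in controls, at or near the floor, and was at least 6.44-fold higher. In the ATRX series HOXB9 had 1.62, 1.30 and 1.57 CPM against 0.384, 0.167 and 0.252 (2.44, edgeR adjusted p = 0.000661). HOXA11 had 2.78, 2.15 and 1.36 CPM after etoposide in the DAXX series (1.21, edgeR adjusted p = 0.0358), a call lost without WT control replicate 1 (0.90) or replicate 2 (0.91) or WT etoposide replicate 1 (0.96) or replicate 2 (1.19), and 3.77, 2.97 and 2.64 CPM in the ATRX series (2.27, edgeR adjusted p = 8.69e-05).

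HOXA3, a pharyngeal arch and thymus gene, fell in WT cells from 8.07, 7.85 and 7.82 CPM to 3.79, 3.23 and 2.03 in the DAXX series (-1.36, SE 0.22, edgeR adjusted p = 2.28e-05) and from 9.36, 6.77 and 8.91 CPM to 3.41, 2.13 and 2.64 in the ATRX series (-1.58, SE 0.28, edgeR adjusted p = 9.27e-05). HOXD8 fell from 28.1, 25.5 and 27.4 CPM to 13.9, 11.6 and 11.5 (-1.11, edgeR adjusted p = 1.5e-07), and from 25.6, 22.7 and 22.8 CPM to 6.82, 5.75 and 6.66 in the ATRX series (-1.86, edgeR adjusted p = 3.4e-08). HOXB4 fell from 25.6, 30.1 and 27.4 CPM to 15.2, 17.5 and 16.3 in the DAXX series (-0.74, edgeR adjusted p = 4.45e-05) and from 40.1, 40.6 and 37.9 CPM to 22.4, 20.1 and 21.4 in the ATRX series (-0.87, edgeR adjusted p = 2.93e-05). No etoposide library of these genes overlapped its WT controls. HOXA4 fell by 0.97 (edgeR adjusted p = 0.00029) and by 1.04 (edgeR adjusted p = 0.000108) on the log2 scale.

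In the knockouts the same direction was called for HOXA5 and HOXB9, which rose in both, and for HOXB4, HOXB6 and HOXD8, which fell in both. The share of all genes called alike with etoposide in both knockouts is not given here. In DAXX_KO 3 of 22 rose and 6 fell, where 26.8% of all genes rose and 27.8% fell. In ATRX_KO 3 of 25 rose and 5 fell, where 24.3% rose and 25.2% fell, and the count of 8 called was 5 without ATRX_KO control replicate 3 or ATRX_KO etoposide replicate 3. HOXA5 rose from 9.79, 11.3 and 11.4 CPM to 20, 23.1 and 23.6 in DAXX_KO (1.05, edgeR adjusted p = 5.63e-05) and from 6.74, 9.09 and 8.77 to 18, 18.4 and 20 in ATRX_KO (1.19, edgeR adjusted p = 5.52e-06). HOXD8 fell to 12.6, 14.6 and 15.1 CPM in DAXX_KO (-0.80, edgeR adjusted p = 1.09e-05) and to 11.6, 8.80 and 14.3 CPM in ATRX_KO (-0.85, edgeR adjusted p = 0.000169). HOXB9 rose to 2.09, 2.63 and 1.58 CPM in DAXX_KO, at least 5.22-fold, and to 2.74, 1.5 and 1.27 CPM in ATRX_KO (2.99, edgeR adjusted p = 0.000161). HOXC10 remained close to the floor in DAXX_KO after etoposide. HOXB6 fell by 1.82 and 0.92 and HOXB4 by 0.63 and 0.45 on the log2 scale, the HOXB4 call in ATRX_KO being lost without ATRX_KO control replicate 3 (-0.36) or ATRX_KO etoposide replicate 2 (-0.39) or 3 (-0.32). HOXA2 (-1.97), HOXB2 (-0.98), HOXB3 (-0.48) and HOXC9 (0.76) were also called in DAXX_KO, and HOXA4 (-0.47), HOXC8 (-0.34) and HOXC13 (1.25) in ATRX_KO. Of these, HOXB3 (without any DAXX_KO library but control replicate 2), HOXC9 (DAXX_KO control replicate 3, etoposide replicate 1 or 3), HOXA4 (ATRX_KO control replicate 2 or 3, etoposide replicate 2 or 3), HOXC8 (control replicate 1 or 3, etoposide replicate 3) and HOXC13 (control replicate 1 or 2, etoposide replicate 3) were not called without 1 of the libraries in brackets. Centred on neighbours, HOXC9 in DAXX_KO (0.66) and HOXA4 in ATRX_KO (-0.39) were not called. HOXB3 in DAXX_KO (-0.44), HOXA4 (-0.46) and HOXC8 (-0.32) in ATRX_KO were not called with DESeq2 (adjusted p = 0.0986, 0.0504 and 0.0706). HOXB3 was also lost with RLE size factors, no filter, all 24 libraries or only the compared groups. HOXA4 and HOXC8 were also lost with library totals, at least 10 counts in every library or only the compared groups.

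**Figure D4:**
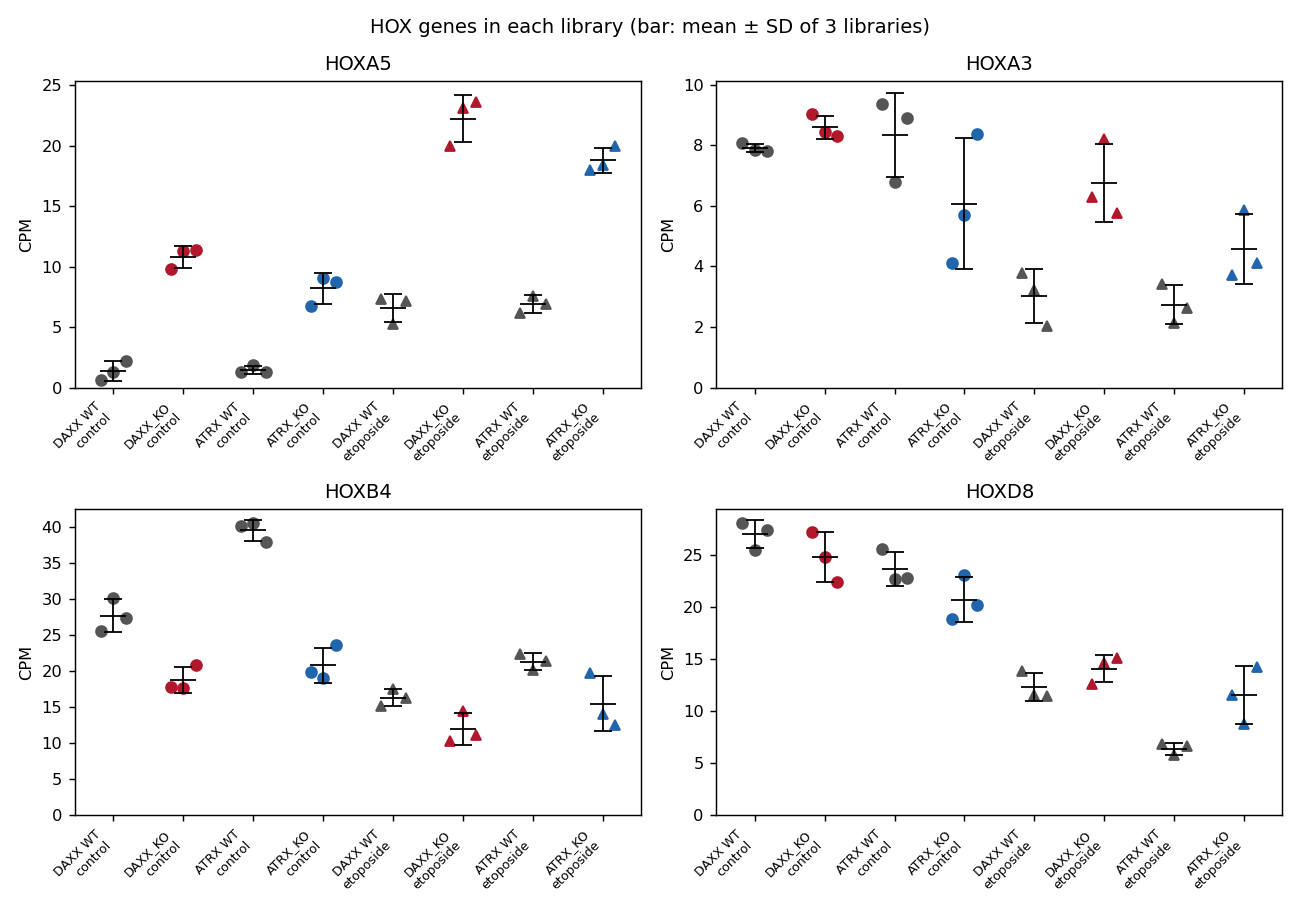
Level of HOXA5, HOXA3, HOXB4 and HOXD8 in each control and etoposide library of the 4 genotype groups, in CPM, with 3 points per group and bars for the mean ± SD. In each genotype the mean of HOXA5 was higher and the means of HOXD8 and HOXB4 were lower with etoposide, and the HOXB4 libraries of ATRX_KO overlap (19.9, 19 and 23.6 CPM in controls, 19.8, 14.1 and 12.5 with etoposide).

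Whether etoposide acted differently in knockout and WT cells was tested as an interaction. It was called for 2 of 22 HOX genes in the DAXX series, where 14.2% of all genes were called, and for 6 of 25 in the ATRX series, where 16.0% were called. Without DAXX WT control replicate 1 the DAXX series count was 0. On the log2 scale HOXA5 rose less in the knockouts, from higher control levels, with interactions of -1.27 in DAXX_KO (SE 0.35, edgeR adjusted p = 0.0181) and -1.07 in ATRX_KO (SE 0.26, edgeR adjusted p = 0.0102). In CPM the rise was larger in the knockouts, from a mean of 10.8 to 22.2 in DAXX_KO against 1.36 to 6.59 in its WT, and from 8.2 to 18.8 in ATRX_KO against 1.47 to 6.92. HOXA3 fell in both WT comparisons and did not pass the test with etoposide in DAXX_KO (-0.34, edgeR adjusted p = 0.15) or ATRX_KO (-0.41, edgeR adjusted p = 0.201). Its interactions were 1.02 (SE 0.29, edgeR adjusted p = 0.0237) and 1.17 (SE 0.38, edgeR adjusted p = 0.0457). The HOXA5 call in DAXX_KO was lost without WT control replicate 1 (-0.89, adjusted p = 0.0828) or WT etoposide replicate 1 (-1.18, adjusted p = 0.0506), and the HOXA3 calls were lost without any 1 of 4 libraries in DAXX_KO (DAXX_KO control or etoposide replicate 2, WT control replicate 1 or WT etoposide replicate 3, 0.82 to 1.01) and of 7 in ATRX_KO (ATRX_KO control replicate 1 or 2, ATRX_KO etoposide replicate 2, WT control replicate 1 or 3, or WT etoposide replicate 2 or 3, 0.95 to 1.17). The HOXA3 call was also lost in ATRX_KO when centred on neighbours (1.07), and in DAXX_KO in the model of all 24 libraries (1.03). In the ATRX series HOXA11 (-2.05), HOXB5 (-1.42), HOXC10 (0.51) and HOXD8 (1.01) were also called, with edgeR adjusted p-values of 0.0149, 0.00526, 0.00717 and 0.00557.

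**Figure D5:**
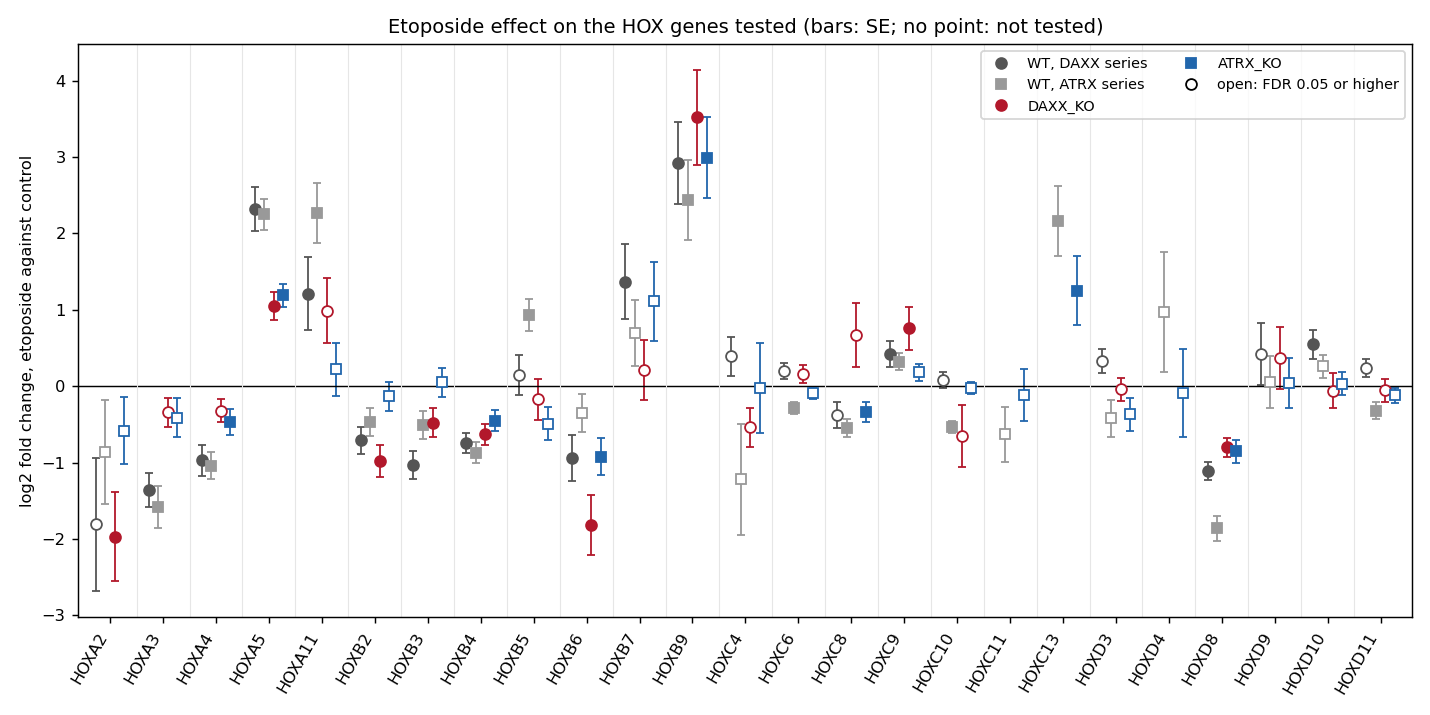
Log2 fold change of each tested HOX gene with etoposide in the 4 genotype groups, with standard errors and filled points for genes past the threshold. The fitted values of HOXA5 and HOXB9 lie above 0 and HOXD8 below 0 in all 4 genotype groups.

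Lists of other regulators of the clusters were tested in the control comparisons. Polycomb repressive complex 1 genes, which hold silent clusters compacted, had 4 higher and 10 lower of 18 in DAXX_KO and 1 higher and 6 lower in ATRX_KO. CBX2, its chromodomain reader, had 11.1, 12.4 and 8.43 CPM in WT and 4.45, 2.95 and 5.74 in DAXX_KO (-1.27, edgeR adjusted p = 6.94e-05), and 17.0, 13.3 and 17.1 CPM in WT and 6.91, 8.02 and 7.28 in ATRX_KO (-1.09, edgeR adjusted p = 0.000124), with no overlap. PRC2 genes, which write the H3K27 methyl mark, had 3 higher and 4 lower of 11 in DAXX_KO (JARID2 at 0.58, RBBP4 at -0.57) and 2 higher and 1 lower in ATRX_KO. Genes of the MLL group and H3K27 demethylases, which keep clusters active, had 4 higher and 3 lower of 18 in DAXX_KO (RBBP5 at -0.86, AFF1 at 0.60) and 5 and 4 in ATRX_KO. The retinoic acid pathway genes, which regulate HOX genes, had 6 higher and 2 lower of 11 in DAXX_KO and 5 and 1 in ATRX_KO. Its enzyme RDH10 rose by 1.27 in DAXX_KO and 0.84 in ATRX_KO, and the receptor RARG by 1.15 and 0.36 (edgeR adjusted p = 0.00167, 0.0106, 9.46e-07 and 0.0369). These shares stand beside background shares of 26.7% and 26.6% in DAXX_KO and 20.8% and 21.0% in ATRX_KO.

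The TALE cofactors, which bind DNA with HOX proteins, had 2 higher and 1 lower of 8 in DAXX_KO and 3 higher and 1 lower in ATRX_KO. For these and the noncoding RNAs below, the background shares are again 26.7% higher and 26.6% lower in DAXX_KO, and 20.8% and 21.0% in ATRX_KO. MEIS3 had 11.1, 9.14 and 8.19 CPM in WT and 47.9, 55.8 and 57.0 in DAXX_KO (2.49, edgeR adjusted p = 2.47e-11), far above every WT library, and rose in ATRX_KO from 16.2, 16.7 and 14.1 CPM to 21.3, 22.9 and 21.5 (0.48, edgeR adjusted p = 0.00541). MEIS1 had 6.46, 5.27 and 4.28 CPM in WT and 2.42, 1.88 and 3.06 in DAXX_KO (-1.12, edgeR adjusted p = 0.00242), and did not pass in ATRX_KO (-0.17). A list of 17 noncoding RNAs of the clusters, which does not hold all of them, had 1 higher (HOXA-AS2) and 2 lower of 7 tested in DAXX_KO, and 1 higher and 1 lower of 9 in ATRX_KO. HOTAIRM1, a noncoding RNA beside HOXA2 at chr7:27135266-27139884 (GRCh37), is outside that list and was picked after its values were seen. It had 31.9, 29.6 and 32.6 CPM in WT and 177, 178 and 180 in DAXX_KO controls (2.51, edgeR adjusted p = 1.97e-15), and 28.9, 34.7 and 32.1 CPM in WT and 83.5, 81.9 and 75.9 in ATRX_KO controls (1.34, edgeR adjusted p = 4.18e-09). Every knockout control library was above every WT control library, and after etoposide the differences were 2.44 and 1.96 (edgeR adjusted p = 6e-15 and 9.52e-11). The related ParaHOX and EVX genes were not tested, with 10 counts at most in any library.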

How the data were processed

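RNA was measured by 3′-end sequencing in 24 libraries of 8 groups. The authors aligned single-end 75-base reads to hg19 with STAR and deposited RSEM estimated counts per gene, without normalization. Their processing notes list RSEM 1.2.3. The estimated counts were rounded to whole numbers. Gene identifiers were matched to GENCODE release 44 on GRCh37 (55501 of 57736 identifiers, 98.78% of counts). The tests used edgeR 4.0.16 in R 4.3.3, with TMM scaling, filterByExpr (minimum count 10, total 15) and the quasi-likelihood test, with Benjamini-Hochberg adjustment over all genes tested and a threshold of 0.05. Each series of 12 libraries was fitted in 1 model of 4 groups, and differences between series came from 1 model of 24 libraries. CPM values used TMM factors over the 24 libraries. Fold changes against a group at or under 3 counts per library are lower bounds.

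The members and gene lists were chosen with earlier results of these data known. Values in every library were given for up to 4 members per cluster with the highest mean CPM, and for members called in the same direction in both knockouts in control cells with at least a 2-fold change. Genes of the other lists were named when called in both knockouts in the same direction with a fold of at least 2, or else the 2 with the largest change in DAXX_KO controls. A further HOX gene of the tables is not reported here. Alternatives were DESeq2 1.42.0, RLE size factors, library totals, other filters, other sets of libraries, a replicate block, centring on neighbouring genes and leaving out each library. The fits were tested on simulated counts. Replicate libraries differed by more than sampling noise in each of 24 pairs (chi-square per degree of freedom 2.16 to 17.1). Same-numbered libraries did not deviate together, with correlations of -0.326 to 0.0786 in 36 comparisons, and were not treated as pairs.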

Additional observations from a re-analysis of the deposited data

Results flagged for a closer look

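Each result here was a tested difference between the effects of 1 contrast in 2 genotypes or 2 series. Groups of 3 libraries were too small to look for single outlying libraries.

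The difference in response to etoposide between knockout and WT cells was called for some HOX genes in each series. In the DAXX series the interaction was 1.02 for HOXA3 and -1.27 for HOXA5, on the log2 scale, or 2 of 22 genes where 14.2% of all genes were called, and without DAXX WT control replicate 1 the count was 0. In the ATRX series it was 1.17 for HOXA3, -1.07 for HOXA5, -2.05 for HOXA11, -1.42 for HOXB5, 0.51 for HOXC10 and 1.01 for HOXD8, or 6 of 25 genes where 16.0% of all genes were called.

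The knockout effects differed between the series in controls, as the DAXX_KO effect minus the ATRX_KO effect. The differences were 1.26 for HOXA4, -1.56 for HOXB6, 3.00 for HOXB7, -0.80 for HOXC6, -4.25 for HOXC8, -3.04 for HOXC9, -5.21 for HOXC10, -1.40 for HOXD10 and -1.12 for HOXD11. Under etoposide they were 1.32 for HOXA4, 0.91 for HOXB5, -1.90 for HOXB6, -2.72 for HOXC4, -1.06 for HOXC6, -3.43 for HOXC8, -2.59 for HOXC9, -6.47 for HOXC10, -0.66 for HOXD8, -1.80 for HOXD10 and -1.63 for HOXD11. The HOXC4 difference rests on a WT etoposide group with counts of 0, 71 and 0, and was not called with DESeq2 (-2.73, adjusted p = 0.0959). The knockouts are 1 clone each, and knockout and clone cannot be told apart.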

How the results depend on the processing

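Counts of called HOX genes kept within 1.5 times of their value under RLE size factors, library totals, DESeq2, no filter and centring on neighbours. With at least 10 counts required in every library, which leaves 13 members in the DAXX series, 17 in the ATRX series and 12 in the joint model, the counts were 9 in DAXX_KO against WT controls, 5 for etoposide in DAXX_KO, 4 for etoposide in ATRX_KO, 1 for the DAXX interaction, and 5 and 7 for the difference between knockout effects in controls and under etoposide. Counting only members with at least 10 counts in every library, an alternative chosen after seeing the data, gave 9 and 8 in DAXX_KO against WT (control and etoposide), 6 and 7 in ATRX_KO against WT, 8 and 10 for etoposide in the WT of the DAXX and ATRX series, 5 and 3 for etoposide in DAXX_KO and ATRX_KO, 1 and 3 for the interactions, and 5 and 7 for the differences between knockout effects, each of 12 such members. Over all 11791 genes with at least 10 counts in every library, the shares called were, in that order, 57.8% and 56.8%, 46.7% and 51.4%, 65.7% and 68.1%, 60.6% and 55.4%, 16.6% and 19.6%, and 40.6% and 41.2%. HOXC8, HOXC10 and HOXA5 are not among the 12, with lowest counts of 2, 3 and 6. The first 2 were lowest in DAXX_KO libraries and HOXA5 in a WT control, so this rule drops genes by the differences reported above. Fitting only the compared groups gave 5 for etoposide in ATRX_KO, and all 24 libraries together gave 1 for the DAXX interaction. HOXB4 in DAXX_KO under etoposide reversed to 0.09 (adjusted p = 0.631) when centred on 30 neighbours on each side, and the cause was not tested.

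Without each library in turn, the counts ran from 14 to 16 in DAXX_KO and from 7 (without ATRX WT control replicate 1) to 13 in ATRX_KO controls, from 12 to 13 and from 6 (without ATRX_KO etoposide replicate 3) to 13 under etoposide, from 10 to 15 and from 13 to 17 for etoposide in WT, from 7 to 11 and from 5 (without ATRX_KO control replicate 3 or ATRX_KO etoposide replicate 3) to 8 in the knockouts, from 0 (without DAXX WT control replicate 1) to 3 and from 5 to 7 for the interactions, from 9 to 10 and from 9 to 11 for the differences between knockout effects, and from 3 to 4 between the WT controls. With a replicate block the counts were 15 and 9 in DAXX_KO and ATRX_KO controls, and HOXB7 (-1.29), HOXD4 (1.87) and HOXD10 (0.40) in ATRX_KO controls, HOXC9 with etoposide in the WT of the DAXX series (0.42) and the HOXA3 interaction in ATRX_KO (1.19) lost their call under that block. Only 3 of 24 libraries correlated best with their own number. Scaling by library totals moved the median of all genes by 0.18 in DAXX_KO controls. Over all results with all libraries kept, 2313 were the same, 57 weaker, 49 stronger, 52 moved and 1 reversed. Genes near 3 counts per library were limited by depth.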

Other observations

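Other genes near the clusters or in the regulator lists had large differences and were picked after their values were seen. LINC02381, a noncoding RNA beside HOXC4, had 7.87, 7.14 and 6.48 CPM in WT and 1.02, 1.47 and 1.34 in DAXX_KO controls (log2 fold change -2.48, edgeR adjusted p = 1.25e-06), and 4.83, 6.69 and 5.38 CPM in WT and 28.1, 31.4 and 29.2 in ATRX_KO controls (2.40). The groups did not overlap in either series, and the directions were opposite. FAM242C, next to it, had a log2 fold change of -2.16 in DAXX_KO. PCGF3, a Polycomb repressive complex 1 gene, had 12.9, 13.6 and 12.9 CPM in WT and 0.171, 0.165 and 0 in ATRX_KO controls, at least 51.4-fold lower (edgeR adjusted p = 2.74e-09), and rose by 0.79 on the log2 scale in DAXX_KO.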
